A study of Homo sapiens with 2 samples.

Results

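The genes described here are 35 genes of fatty acid synthesis, desaturation, elongation, activation, binding and mitochondrial oxidation. They were read through the array's probe sets whose only gene symbol in the platform annotation is one of the 35, out of 18244 genes read in this way. Of the 35 genes, 33 had such a probe set, with 91 probe sets among them. MCAT, of mitochondrial fatty acid synthesis, and ACSL3, an acyl-CoA synthetase gene, had none and were not analysed here. A further 2 genes, ACACB and ELOVL4, lay below a floor on mean level, set at the median of all probe sets that are no controls (log2 6.64). The remaining 31 genes were counted.

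The cells were MDA-MB-231, an established line from a human breast carcinoma, with mesenchymal traits. The knockdown cells were a single clone with stable UGT8 knockdown, and the controls were its parental cells, both grown in DMEM with 5.6 mmol/L glucose and harvested 48 h after passage. UGT8 encodes the ceramide galactosyltransferase, which makes galactosylceramide. Each group was 1 array, so nothing below has a replicate check, no test was run, and the differences of a clone from its parent line cannot be told apart from those of the knockdown. A difference is the log2 level on the knockdown array minus that on the control array, and describes this pair of arrays. "Lower" or "higher" as a count means by at least 1.5-fold unless another threshold is given. In whole cell populations, fewer cells of a type and less RNA per cell cannot be told apart.

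Cells build fatty acids in the cytosol from acetyl-CoA, which ATP citrate lyase makes from exported citrate and an acetyl-CoA synthetase makes from acetate. Acetyl-CoA carboxylase turns it into malonyl-CoA, fatty acid synthase builds palmitate with NADPH, and enzymes of the endoplasmic reticulum lengthen and desaturate the product. Acyl-CoA synthetases activate fatty acids for use in lipids or for oxidation, which takes place in mitochondria after transfer through the carnitine shuttle. Many genes of the synthetic steps are textbook targets of the sterol regulatory element-binding proteins, and sphingolipids such as galactosylceramide take their acyl chains and their long-chain base from the same acyl-CoA pools.

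UGT8 was lower on the knockdown array in all 3 of its probe sets, with differences of -2.34, -1.68 and -2.27. The brightest, the only 1 past the floor by its mean level, read 6.61 on the knockdown array, against 8.95 on the control array. All 8 genes listed as high in this line lay past the floor, VIM at 13.9 on each array and CD44 at 12.5 on the knockdown and 12.8 on the control array. Of 8 hormone receptor and luminal genes, listed as low in this line, ESR1 and PGR lay below the floor and 6 past it. The luminal keratin genes were bright, KRT18 at 11.98 on the knockdown and 11.90 on the control array, and KRT8 at 11.30 on the knockdown and 11.25 on the control array. The others past the floor were ERBB2, GATA3, FOXA1 and CDH1. Both arrays had a median of 6.64, and the median difference over 10439 genes past the floor was 0.03. Identical values on both arrays were read in 3.53% of the probe sets that are no controls, among them 3 of the 91 studied here. The 18 hybridisation control probe sets had a median difference of 0.51, and the 24 poly-A control probe sets one of 0.08. For ACTB, the 3' probe set exceeded the 5' one by 0.90 on the knockdown and 0.49 on the control array, and for GAPDH by 0.19 on the knockdown and 0.18 on the control array. Whether these readings bear on the fatty acid genes was not tested.

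Genes that supply precursors, build fatty acids or desaturate them were lower on the knockdown array in part, and genes of elongation and oxidation lay within 1.5-fold by their brightest probe sets. The oxidation gene ACADVL was lower by the mean of its probe sets (-0.75), and CPT1A (-0.63) with the arrays centred on poly-A controls. Of the 31 genes counted, 8 were at least 1.5-fold lower (25.8%), against 6.74% of all genes past the floor. They were the acetate-activating enzyme gene ACSS2, the citrate carrier gene SLC25A1, the synthase gene FASN, the carboxylase activator gene MID1IP1, the desaturase genes SCD, FADS1 and FADS2, and the acyl-CoA synthetase gene ACSL4. None was higher, against 4.96% of all genes. The genes were chosen with earlier results of these data known, so these shares are not independent of the data. At 2-fold, by the brightest probe sets, ACSS2 alone was lower, against 1.54% of all genes, and none was higher, against 0.738%. By the mean of its 4 probe sets (-1.17), SCD was past 2-fold as well. The 31 genes had a median difference of -0.16, and 21 of them (against 45.8% of all genes) were below 0. Among the genes past a higher floor, at the 75th percentile of mean level, the same 8 of 29 were lower, against 6.68% of all genes past it.

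**Figure D1:**
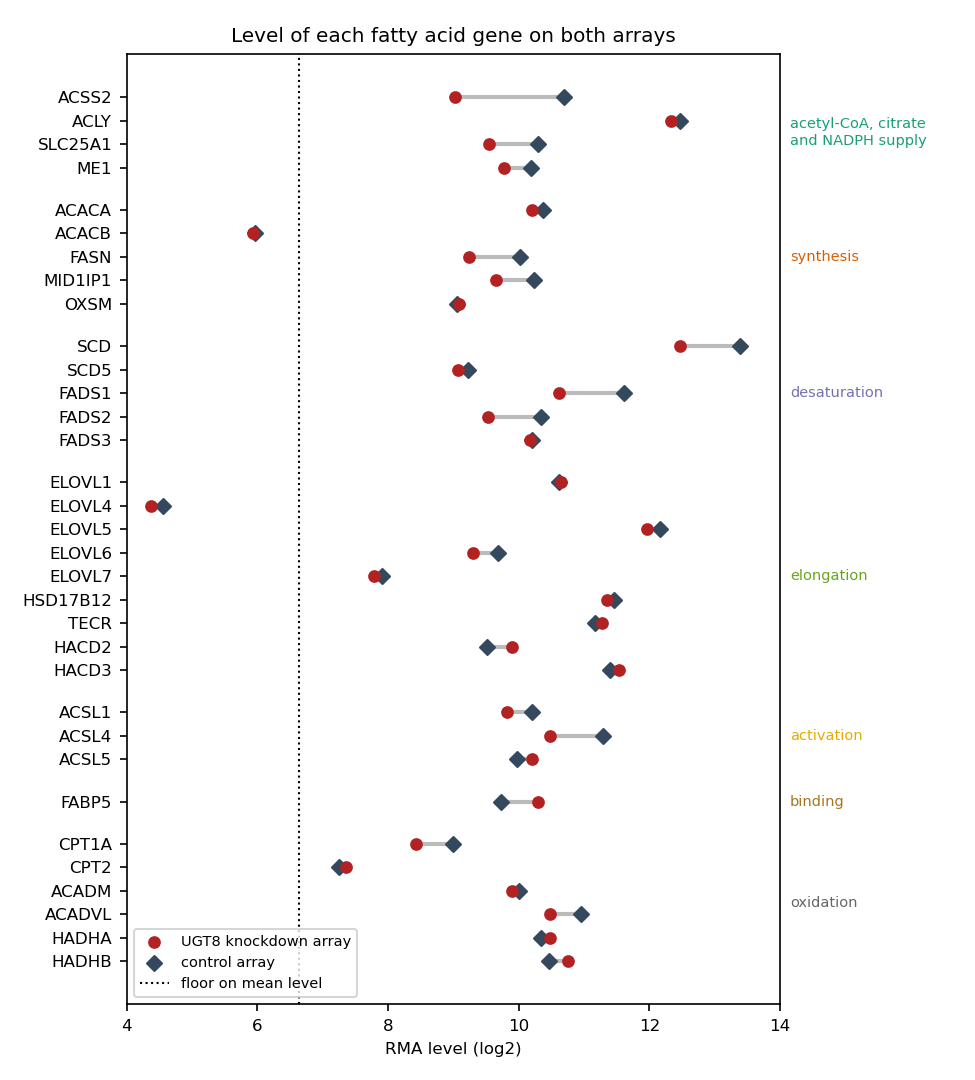
RMA level (log2) of the 33 measured fatty acid genes on the UGT8 knockdown array (circles) and the control array (diamonds), each by its brightest probe set, grouped by role. The vertical dotted line is the floor at 6.64. Levels of different genes come from different probes and are not comparable with each other, whereas the length of each bar is the gene's difference, longest for ACSS2 (-1.67).

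Of the precursor genes, all 4 were below 0, with a median of -0.59. ACSS2, which makes acetyl-CoA from acetate in the cytosol and nucleus, read 9.02 on the knockdown array, against 10.69 on the control array. This difference of -1.67 left 31.5% of the control signal, and it ranked 23rd from the lowest among 10439 genes. Its dimmer probe set read 7.01 on the knockdown and 9.04 on the control array, a difference of -2.03. SLC25A1, which exports citrate from mitochondria, read 9.54 on the knockdown and 10.30 on the control array (-0.76). Its other probe sets past the floor read 9.19 and 8.43 on the knockdown array, against 9.67 and 8.75 on the control array (-0.48 and -0.32), so that SLC25A1 averaged -0.52 ± 0.22 (SD over 3 probe sets, which is no replicate error) and was then within 1.5-fold. Every probe set of the 4 precursor genes was below 0, and those of SLC25A1 disagreed on the size. ACLY, the ATP citrate lyase that splits the exported citrate, read 12.33 and 10.64 on the knockdown array, against 12.47 and 10.75 on the control array, with differences of -0.14 and -0.11. ME1, the cytosolic malic enzyme that yields NADPH, read 9.77 on the knockdown and 10.20 on the control array (-0.42), and its other probe set 9.62 on the knockdown and 10.31 on the control array (-0.70).

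In the synthesis group, the 4 counted genes had a median of -0.38, and 2 of them were lower. FASN, which assembles palmitate, was read by 1 probe set at 9.24 on the knockdown and 10.02 on the control array, a difference of -0.78 or 58.4% of the control signal. MID1IP1, whose product promotes polymerisation of acetyl-CoA carboxylase, read 9.65 on the knockdown and 10.24 on the control array (-0.60), just past the threshold. ACACA, the cytosolic acetyl-CoA carboxylase itself, read 10.20 on the knockdown and 10.36 on the control array (-0.16). A dimmer ACACA probe set read 6.77 on the knockdown and 6.88 on the control array (-0.11), and one below the floor differed by -0.08. OXSM, the mitochondrial ketoacyl synthase, differed by 0.03. ACACB, the carboxylase at the mitochondrial surface whose malonyl-CoA restrains carnitine transfer, lay below the floor at 5.94 on the knockdown and 5.96 on the control array. With ACACB counted, the median of the synthesis genes was -0.16.

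Desaturases divided within their own families. SCD, the stearoyl-CoA desaturase that makes monounsaturated fatty acids, read 12.47, 10.07, 9.93 and 9.62 in its 4 probe sets on the knockdown array, against 13.39, 11.27, 11.21 and 10.87 on the control array. All 4 SCD probe sets were lower, with differences of -0.92, -1.20, -1.28 and -1.26, and a mean of -1.17 ± 0.17 (SD over probe sets). The brightest of them, which stands for SCD in the counts, gave the smallest of these differences. SCD5, a stearoyl-CoA desaturase of primates and some other vertebrates that rodents lack, read 9.07 on the knockdown and 9.23 on the control array (-0.16). Its other probe sets past the floor read 7.28 and 7.07 on the knockdown array, against 7.40 and 7.47 on the control array (-0.13 and -0.40).

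FADS1 and FADS2, the front-end desaturases of polyunsaturated fatty acids, were lower in every probe set. FADS1 read 10.62, 10.14 and 9.77 on the knockdown array, against 11.61, 11.11 and 10.80 on the control array, with differences of -0.99, -0.97 and -1.02 (SD of 0.03 over 3 probe sets). FADS2 read 9.53, 9.24, 7.64 and 7.18 on the knockdown array, against 10.33, 10.11, 8.47 and 8.04 on the control array, and averaged -0.84 ± 0.03 (SD over 4 probe sets). FADS3, which acts on sphingoid bases, read 10.17 on the knockdown and 10.21 on the control array, a difference of -0.04. The 3 genes lie in a cluster on chromosome 11. In RefSeq's GRCh38.p14 table, FADS1 and FADS2 start on opposite strands, with 599 or 800 bases between the starts for the 2 starts of FADS2, and FADS3 starts 74542 bases from FADS1.

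**Figure D2:**
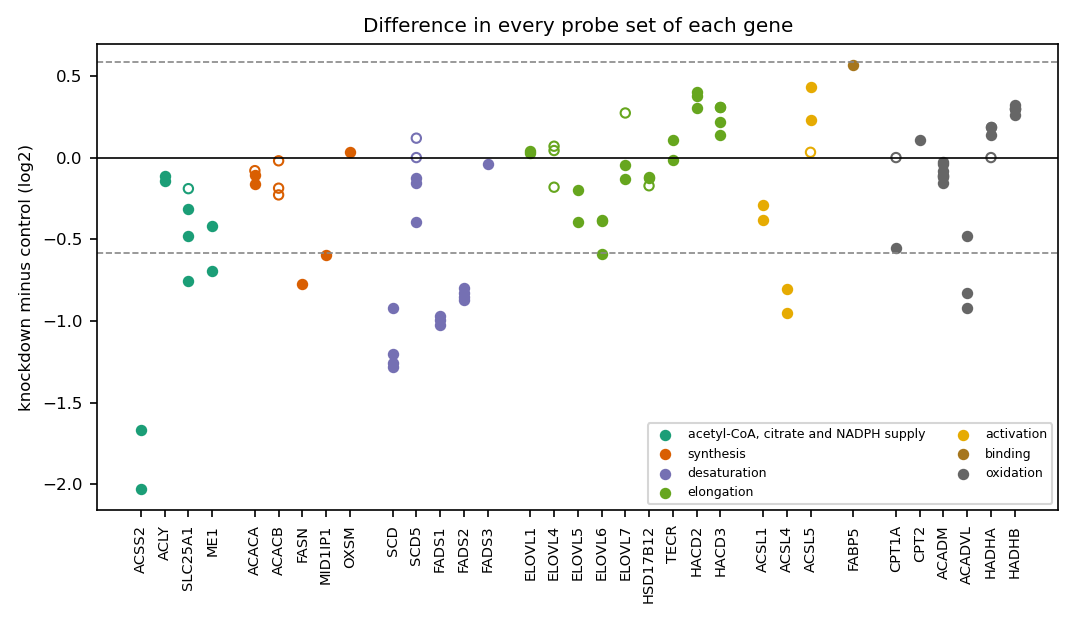
Difference (knockdown minus control, log2) in every probe set of the 33 measured fatty acid genes, coloured by role. Filled points lie past the floor and open points below it, and dashed lines mark 1.5-fold. The probe sets of ACSS2, SCD, FADS1, FADS2 and ACSL4 all lie below the lower line, those of SLC25A1, ME1, ELOVL6 and ACADVL fall on both sides of it, and none lies above the upper line.

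The elongation genes lay on both sides of 0. The 8 counted had a median of -0.04, with 4 below 0 and 4 above, and none was lower or higher. ELOVL6, which lengthens palmitate to stearate, had the lowest difference (-0.38), with 9.31 on the knockdown and 9.69 on the control array. Its other probe sets read 8.89 and 7.64 on the knockdown array, against 9.27 and 8.23 on the control array (-0.39 and -0.59). ELOVL5, the elongase of polyunsaturated chains, read 11.96 on the knockdown and 12.16 on the control array (-0.20), and its other probe set 10.79 on the knockdown and 11.18 on the control array (-0.39). ELOVL5 and ELOVL6 thus lay below 0 in every probe set, and 1 probe set of ELOVL6 passed 1.5-fold. ELOVL7, which acts on saturated long chains, read 7.78 and 7.82 past the floor on the knockdown array, against 7.91 and 7.87 on the control array (-0.13 and -0.04). ELOVL1, which makes very long chains for sphingolipids, differed by 0.04 and 0.03. ELOVL4 lay below the floor at 4.38 on the knockdown and 4.56 on the control array, where the 23 background probe sets averaged 4.73 on both arrays.

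Of the enzymes that complete each elongation cycle, the dehydratase gene HACD2 was on the positive side in all 3 probe sets, at 9.89, 7.58 and 6.85 on the knockdown array, against 9.51, 7.28 and 6.45 on the control array. Its differences were 0.38, 0.31 and 0.40. The other dehydratase gene, HACD3, differed by 0.14 to 0.31 over 4 probe sets. The ketoacyl-CoA reductase gene HSD17B12 read 11.35 and 10.94 on the knockdown array, against 11.46 and 11.06 on the control array (-0.12 and -0.13). The enoyl-CoA reductase gene TECR differed by 0.10 in one probe set and -0.01 in the other. Of the 24 genes that 2 or more probe sets read past the floor, TECR alone had readings of both signs. The same share over all genes was not counted.

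Of the 3 acyl-CoA synthetase genes measured, ACSL4 was lower, ACSL1 below 0 and ACSL5 above 0, with a median of -0.38. ACSL4, which prefers arachidonate and other polyunsaturated fatty acids, read 10.48 and 7.62 in its probe sets on the knockdown array, against 11.28 and 8.57 on the control array. Both ACSL4 probe sets were lower (-0.81 and -0.95). ACSL1 read 9.82 and 8.30 on the knockdown array, against 10.20 and 8.59 on the control array, with differences of -0.38 and -0.29. ACSL5, a synthetase found on mitochondria and the endoplasmic reticulum, read 10.20 and 9.24 on the knockdown array, against 9.97 and 8.81 on the control array, with differences of 0.23 and 0.43. FABP5, a cytosolic fatty acid carrier, read 10.29 on the knockdown and 9.73 on the control array. Its difference of 0.57 was the highest of the 31 genes and just short of 1.5-fold (1.48-fold). The FABP5 probe set is marked for possible cross-hybridisation (_x_at), and the gene has near-identical pseudogenes, so which copy was measured is uncertain. The same mark is on the brightest probe sets of SLC25A1, FADS2, ELOVL1, ACADVL and HADHB, and on every SLC25A1 probe set past the floor. SCD and MID1IP1 were read only by probe sets named _s_at or _x_at.

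The oxidation genes had a median of -0.003, with 3 of 6 below 0, and none was lower or higher. CPT1A, the gate for entry of long chains into mitochondria, read 8.44 on the knockdown and 8.99 on the control array (-0.56, or 1.47-fold lower). Its other probe set lay below the floor with the identical value of 5.90 on both arrays, and the mean of both CPT1A probe sets was -0.28. CPT2, the inner-membrane enzyme of the same shuttle, differed by 0.11. ACADVL, the dehydrogenase of very long chains, read 10.48, 9.66 and 7.99 on the knockdown array, against 10.96, 10.49 and 8.92 on the control array. The brightest ACADVL probe set gave -0.48, within 1.5-fold, and the others -0.83 and -0.92, so that their mean was -0.75. ACADM, the dehydrogenase of medium chains, read 9.89, 9.73, 9.47, 9.21, 8.98, 8.42 and 7.69 in its 7 probe sets on the knockdown array, against 10.00, 9.84, 9.50, 9.25, 9.06, 8.57 and 7.81 on the control array. All 7 ACADM differences lay between -0.15 and -0.03.

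HADHA and HADHB encode the subunits of the mitochondrial trifunctional protein, which carries out the last steps of each cycle on long chains. Both were on the positive side in every probe set past the floor. HADHA differed by 0.14 to 0.19 over 3 probe sets, and HADHB by 0.26 to 0.32 over 5. HADHB, by its brightest probe set, read 10.76 on the knockdown and 10.46 on the control array. In RefSeq's GRCh38.p14 table the pair starts on opposite strands of chromosome 2 with 307 bases between the starts, so that their upstream windows overlap.

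**Figure D3:**
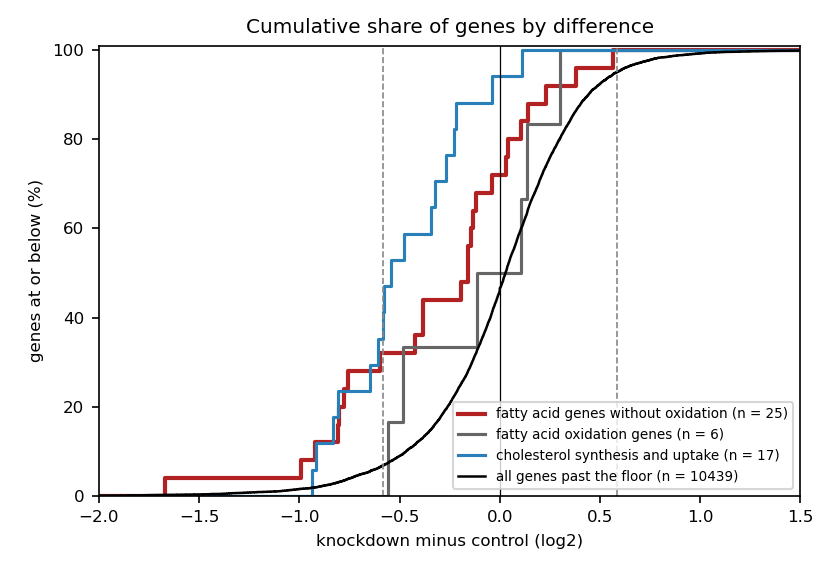
Cumulative share (%) of genes at or below each difference (knockdown minus control, log2). The 25 counted fatty acid genes other than oxidation genes (red) and the 17 genes of cholesterol synthesis and uptake (blue) run left of all 10439 genes past the floor (black) over most of their range, and no oxidation gene (grey, 6 genes) lies beyond the dashed 1.5-fold lines.

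Probe sets of 1 gene mostly gave the same sign, which was not set beside the same share over all genes. Of the 76 probe sets past the floor, 22 were lower, against 7.07% of all such probe sets, and none was higher, against 4.64%. These 22 belonged to 11 genes, the 8 already named with ME1, ELOVL6 and ACADVL. For 7 of the 8, all but SLC25A1, every probe set past the floor was lower. Probe sets of 1 gene share the pair of arrays and in part their target sequence, so they are no independent readings. Averaged over the probe sets past the floor, 8 genes were again lower, with ACADVL in place of SLC25A1, against 6.26% of all genes.

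The region upstream of a start is shown for 5 of the 8 lower genes, to set the genes that were lower beside the letters known from promoters of this pathway. The sequences are RefSeq's, 250 bases before a start in GRCh38.p14, 5′ to 3′ on the strand of the gene. Of the 35 genes, 31 matched the promoter table, with 47 starts, and FASN, OXSM, HSD17B12 and FABP5 did not. The motifs searched on both strands were TCACNCCAC, a sterol regulatory element, CCAAT, the box bound by NF-Y, and CACGTG, an E box, none of which contains another. Capitals mark a match, and CCAAT reads ATTGG where it lies on the other strand. They are ACSS2 at chr20:34874739-34874988 (plus strand), the more upstream of its 2 starts, SLC25A1 at chr22:19178737-19178986 (minus strand), MID1IP1 at chrX:38801209-38801458 (plus strand), SCD at chr10:100346983-100347232 (plus strand) and ACSL4 at chrX:109733258-109733507 (minus strand).
ACSS2: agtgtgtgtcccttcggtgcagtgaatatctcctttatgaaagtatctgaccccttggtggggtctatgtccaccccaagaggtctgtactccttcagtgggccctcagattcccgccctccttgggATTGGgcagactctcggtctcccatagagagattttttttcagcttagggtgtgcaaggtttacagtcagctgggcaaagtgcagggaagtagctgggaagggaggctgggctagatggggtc
SLC25A1: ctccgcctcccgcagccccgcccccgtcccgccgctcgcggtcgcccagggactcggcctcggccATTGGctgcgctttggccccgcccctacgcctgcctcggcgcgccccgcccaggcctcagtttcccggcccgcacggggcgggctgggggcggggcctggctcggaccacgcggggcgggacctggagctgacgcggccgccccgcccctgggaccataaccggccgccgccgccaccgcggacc
MID1IP1: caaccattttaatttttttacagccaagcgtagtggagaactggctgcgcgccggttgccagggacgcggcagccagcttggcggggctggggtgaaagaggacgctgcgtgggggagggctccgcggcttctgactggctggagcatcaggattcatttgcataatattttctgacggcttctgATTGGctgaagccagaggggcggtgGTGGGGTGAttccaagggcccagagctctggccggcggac
SCD: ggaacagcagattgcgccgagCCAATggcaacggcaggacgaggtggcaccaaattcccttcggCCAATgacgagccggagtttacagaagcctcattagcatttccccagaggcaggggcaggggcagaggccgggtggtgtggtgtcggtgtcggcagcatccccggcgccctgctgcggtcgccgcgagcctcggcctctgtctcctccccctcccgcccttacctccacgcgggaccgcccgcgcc
ACSL4: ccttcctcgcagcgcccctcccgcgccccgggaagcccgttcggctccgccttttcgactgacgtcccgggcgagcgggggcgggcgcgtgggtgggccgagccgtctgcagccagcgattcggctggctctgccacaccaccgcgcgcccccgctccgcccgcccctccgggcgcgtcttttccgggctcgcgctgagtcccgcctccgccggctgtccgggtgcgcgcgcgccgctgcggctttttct

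MID1IP1 held the sterol regulatory element 40 bases upstream of its start, with a CCAAT box 65 bases upstream. In the same window the SCD sequence held CCAAT boxes 229 and 186 bases upstream, that of SLC25A1 one at 185 and that of ACSS2 one at 123. The ACSL4 sequence held no match, nor did the other ACSS2 start, the FADS1 start or the 2 FADS2 starts, which are not shown. Among the 31 genes, the sterol regulatory element letters were found in 2, MID1IP1 and the most downstream of the ACSL1 starts, or 4.26% of the 47 windows, against 0.883% of 35116 windows in the whole table. CCAAT was found in 40.4% of the 47 windows, against 32.0% of all, and CACGTG in 4.26%, against 6.34% of all. Of the 7 lower genes in the table, 4 held CCAAT in a window, 1 the sterol regulatory element and 0 the E box. Counted in the same way by gene, CCAAT was held by 16 of the 31 genes (51.6%) and by 37.0% of 27305 genes in the table. The sterol regulatory element was held by 6.45% of the 31 genes, against 1.09% of all genes. For the E box the shares were 6.45% of the 31 and 7.73% of all. A gene with more starts has more windows to hold a match, and the 31 genes had 47 windows, against 35116 for the 27305 genes. A match is a description of letters, and its absence says only that they are not in this window.

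Regulators of the pathway included genes that were lower. Of the 16 transcription regulators past the floor, 4 were lower (25%), 0 higher, and the median was -0.13. For this list and those below, the background is all genes past the floor, with 6.74% lower, 4.96% higher and 45.8% below 0. These lists, too, were chosen with earlier results of these data known. INSIG1, which retains the sterol-sensing complex in the endoplasmic reticulum, read 11.32 on the knockdown and 12.38 on the control array (-1.06). SREBF1, which encodes the element-binding protein tied most closely to fatty acid synthesis, read 9.16 on the knockdown and 9.97 on the control array (-0.80), though its other probe set past the floor gave -0.25 and the mean of its 3 probe sets was -0.55, within 1.5-fold. PPARA, a nuclear receptor that drives genes of oxidation, differed by -0.77, and by -0.29 as the mean of its 8 probe sets, of which 4 lay past the floor at -0.77 to -0.48. FBXW7, a ubiquitin ligase component that targets the element-binding proteins, differed by -0.72. SREBF2, whose protein acts more on cholesterol genes, differed by -0.57, within 1.5-fold, but by -0.62 as the mean of its 3 probe sets, past 1.5-fold. SCAP, the escort of these proteins, differed by 0.05. INSIG2, of the same list, also passed 1.5-fold only by the mean of its 3 probe sets (-0.61, against -0.53 by the brightest). Of 9 genes of AMPK and acetyl-CoA carboxylase control, 0 were lower and 1 was higher, BRCA1 (0.61), with a median of -0.03.

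Of the 17 genes of cholesterol synthesis and uptake past the floor, 6 were lower (35.3%, against 6.74% of all genes), 0 higher and 16 below 0 (94.1%, against 45.8%), with a median of -0.54. This list was chosen with earlier results of these data known, so its shares are not independent of the data. HMGCS1 (-0.94), SQLE (-0.92), HSD17B7 (-0.83) and MSMO1 (-0.81), all enzymes of cholesterol synthesis, had the largest differences there. Further mitochondrial oxidation genes had a median of 0.06, with 1 of 14 lower, the electron transfer gene ETFDH (-0.73). Of 11 peroxisomal oxidation genes, 2 were lower, AMACR (-0.70, or -0.29 as the mean of its 2 probe sets) and ACOX3 (-0.62), and 1 was higher, the oxidase gene ACOX2 (0.66), with a median of 0.06.

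Of 16 glycerolipid synthesis genes, 1 was lower, the phosphatidate phosphatase gene LPIN1 (-0.74), and 0 were higher, with a median of 0.08. Of 8 further activation, uptake and binding genes, 1 was lower, the fatty acid transporter gene SLC27A1 (-0.63, or -0.34 as the mean of its 5 probe sets), with a median of -0.13. The 13 genes of lipid droplets and lipolysis (median -0.12), the 8 further NADPH and acetyl-CoA supply genes (0.04) and the 8 further elongation and thioesterase genes (0.07) held 0 lower and 0 higher. All 10 lists together had 120 genes past the floor, of which 15 were lower and 2 higher, with a median of -0.09. Together they had 12.5% lower, against 6.74% of all genes. Without the cholesterol list, 9 of 103 were lower (8.74%), near that background, with a median of -0.01.

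**Figure D4:**
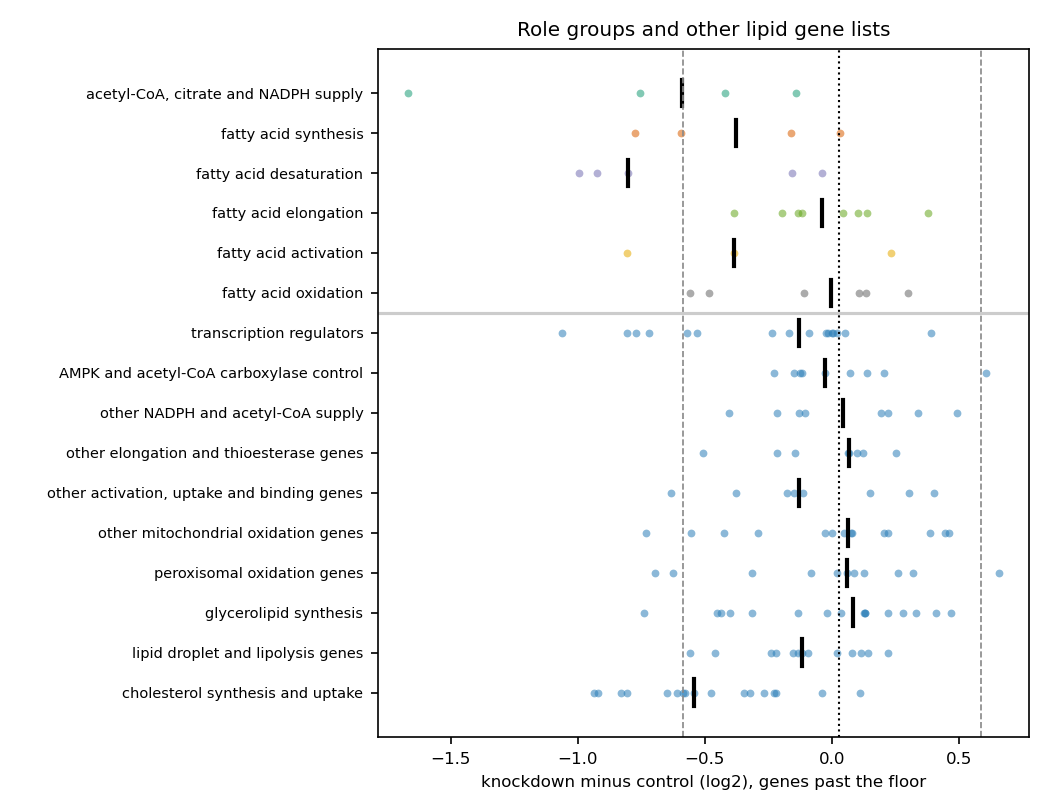
Difference (knockdown minus control, log2) of each gene past the floor in 6 role groups of the fatty acid genes (top) and in 10 other lipid gene lists (bottom). Black bars are medians, the dotted line is the median of all genes past the floor (0.03) and dashed lines mark 1.5-fold; the medians of the precursor supply (-0.59), desaturation (-0.80) and cholesterol (-0.54) genes lie farthest left.

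Markers of other cell types lay mostly below the floor. Of 31 markers of adipocytes, hepatocytes, fibroblasts, leukocytes and endothelium, 9 lay past the floor. The adipocyte list, the one closest to fatty acid storage, had 2 of 8 past the floor, ADIPOQ (6.79 on the knockdown and 6.93 on the control array) and LIPE (6.92 on the knockdown and 7.07 on the control array), and a summed linear signal of 539.2 on the knockdown and 571.8 on the control array. The adipocyte genes LEP, PLIN1, FABP4, CIDEC, CD36 and CFD were below the floor. Of the 9 markers past the floor, 5 were lower, COL3A1, LUM, PECAM1, SERPINA1 and CD14, against 6.74% of all genes, and 0 higher, against 4.96%. The summed signal was 337.5 on the knockdown and 662.5 on the control array for fibroblast markers, and 392.0 on the knockdown and 613.9 on the control array for endothelial markers. For hepatocyte markers it was 421.0 on the knockdown and 611.6 on the control array, and for leukocyte markers 883.5 on the knockdown and 897.0 on the control array. Their part in the differences of the fatty acid genes was not tested.

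The direction of small differences depended on the scale between the arrays. Centred on the hybridisation controls, every difference was lower by 0.51, the median of all genes past the floor was -0.48, and 30 of the 31 fatty acid genes were below 0, all but FABP5 (0.05), against 92.9% of all genes, so that this count lies near the background. On that scale the 8 genes named as lower differed by -2.18 to -1.11, and HACD2 (-0.13), HADHB (-0.21), HADHA (-0.38), HACD3 (-0.37) and ACSL5 (-0.28) were below 0 but above the median of all genes. Relative to that median, the order of the genes is the same as on the deposited scale. Centred on the poly-A controls the median of the 31 genes was -0.23 against -0.05 for all genes. On that scale 9 were lower, the 8 with CPT1A (-0.63), against 8.68% of all genes. That scale also put OXSM (-0.04) and ELOVL1 (-0.03) below 0.

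**Figure D5:**
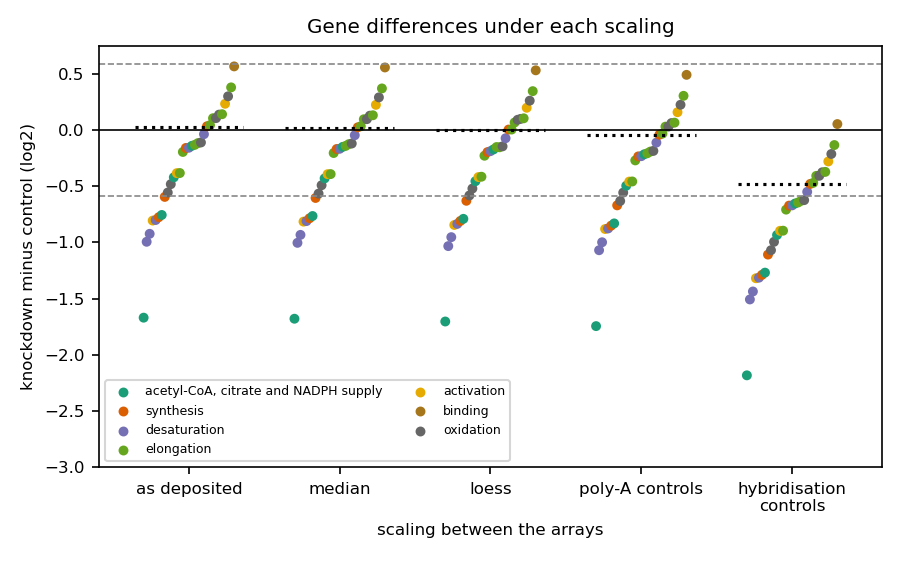
Difference (knockdown minus control, log2) of the 31 fatty acid genes past the floor, ordered from lowest to highest and coloured by role, as deposited and under 4 other scalings between the arrays. Dotted bars are the median of all genes past the floor, solid and dashed lines mark 0 and 1.5-fold. The genes move together when the scale is set on hybridisation controls, and ACSS2 is the lowest under each scaling.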

How the data were processed

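Total RNA of 2 samples was hybridised to 1 Affymetrix array each, as biotin-labelled cRNA made from 6 ug, per the labels. The deposited values are log2 levels made by the authors with RMA, per the submitters' processing notes. RMA corrects background, normalizes between arrays and summarises probe sets, so differences are relative to the bulk of transcripts. The precision is limited by the number of arrays. The software, its version and the build were not given in the sources used here.

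Python 3.11.15 with pandas 2.3.3 and statsmodels 0.14.6 was used. Of 49495 probe sets, 102 were controls, 45278 had 1 symbol, 1333 several and 2782 none in the table used. Of 18244 symbols, 18201 are in RefSeq's GRCh38.p14 table. Each gene was represented by its brightest probe set, by the mean of both arrays. The floor was the median mean level of non-control probe sets. With 1 array per group no test was run, and counts were set beside all 10439 genes past the floor. Probe sets of 1 gene had a median SD of 0.0832 in their differences, which served as the yardstick for settings. The counting was tested on simulated data.

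The 35 genes and all lists were chosen with earlier results of these data known. All 35 genes are named. Of each other list, up to 4 genes past the floor with the largest differences of at least 1.5-fold are named. SREBF2, SCAP and INSIG2 were added after their values were seen, as were the markers past the floor. Alternatives were other floors, averaging of probe sets, removal of probe sets by suffix, 4 scalings and a 2-fold threshold. Protein sequences were not used here.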

Additional observations from a re-analysis of the deposited data

Results flagged for a closer look

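A probe set outside the counts, because its annotation names both FABP5 and the pseudogene FABP5P3, was 1.06 higher on the knockdown array (2.09-fold), against 0.57 for the FABP5 probe set that was counted. It is given because it differed by at least 1.5-fold in data the comparisons did not use. Which copy either probe set measured is uncertain.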

How the results depend on the processing

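Of 8 lower fatty acid genes, the same 8 were lower with no floor, with the floor at the 25th or 75th percentile, and after centring on the median, by loess, on poly-A controls or on hybridisation controls. This agreement is no check of the 8, because a change of floor leaves the difference of each gene as it was. The centrings all moved the median of the 31 genes down from -0.16. It became -0.17 centred on the median, -0.19 by loess and -0.23 on poly-A controls. Centring on hybridisation controls made 20 lower, against 37.1% of all genes. The medians were then -0.67 over all 31, -1.10 for supply, -0.89 for synthesis, -1.31 for desaturation, -0.55 for elongation, -0.90 for activation and -0.52 for oxidation. On that scale the other lipid genes had a median of -0.60, with 62 lower, 0 higher and 118 below 0, and all genes past the floor had 3868 lower and 50 higher, against 704 and 518 as deposited. Poly-A centring gave 906 lower and 353 higher among all genes, and 0 higher among other lipid genes. At 2-fold, by the brightest probe sets, 1 fatty acid gene was lower, and 1 other lipid gene was lower and 0 higher. Averaging all probe sets moved the supply median to -0.50. With no floor or the 25th percentile floor, which count ACACB, the synthesis median was -0.16 and 5 other lipid genes were higher. With the 75th percentile floor the oxidation median was -0.11, and of 79 other lipid genes 9 were lower, 0 higher and 45 below 0. Without probe sets named _s_at, _x_at or _a_at only 4 fatty acid genes remained, none of them among the 8, with 1 lower and 2 below 0. The 1 gene left per group then gave -0.70 for supply, -0.40 for desaturation, 0.38 for elongation and 0.11 for oxidation. Of 23 other lipid genes 2 were lower, 2 higher and 12 below 0, and of all genes 9.01% were lower and 5.96% higher. Removing only _s_at and _x_at probe sets, chosen after seeing the data, left 24 genes. Of these, 6 were lower, against 6.83% of all genes. They were ACSS2, FASN, FADS1, FADS2 and ACSL4 of the 8, with ACADVL (SCD and MID1IP1 had no probe set left, SLC25A1 none past the floor). Medians were -1.04 for supply, -0.47 for synthesis, and -0.48 for desaturation, over fewer genes, and -0.29 for activation, where ACSL1 was read by its other probe set. No paired analysis was possible because each group holds 1 array, and no replicate could be left out for the same reason.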
